A study of Mus musculus with 2 samples.

Results

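Genes of blood clotting and clot removal were read across the cells of the mouse lung: *Vwf*, *F8*, *F3*, *Tfpi*, *Thbd*, *Procr* and *Plat*. They are 7 of the 31053 genes in the matrices, were chosen by their symbol as genes of coagulation and fibrinolysis, and all 7 had at least 1 UMI (unique molecular identifier, a tag that lets each captured transcript be counted once) in the kept cells. The lungs came from C57/B6 mice aged 2 to 4 months, without a transgene, kept in normoxia or exposed to hypoxia for 3 weeks, and the comparison asks how lung cells differ after that exposure. Before capture by the Chromium 3' method, blood was flushed out and cells carrying CD45 (leukocytes) or CD326 (epithelium) were removed with antibody-coated beads, so the shares of those classes are not those of the lung. Each condition is 1 library, so there is no replicate, no test was made, and every interval covers counting error only. The study used several animals, and the labels do not say whether a library pools their cells.

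A clot starts when tissue factor, encoded by *F3*, meets plasma, and it grows when thrombin cuts fibrinogen. Von Willebrand factor (*Vwf*), which endothelial cells (ECs) keep in storage granules, tethers platelets to a damaged wall and carries factor VIII (*F8*) in plasma. The endothelium holds clotting back with tissue factor pathway inhibitor (*Tfpi*), with thrombomodulin (*Thbd*), which turns thrombin towards activation of protein C, and with the endothelial protein C receptor (*Procr*). Tissue plasminogen activator (*Plat*) starts the removal of fibrin. In the lung, a bed of very small vessels with a large endothelial surface, these roles are known to be spread unevenly between arteries, capillaries, veins and lymphatics.

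In the genome build GRCm38 (GENCODE annotation), *Vwf* (ENSMUSG00000001930) is on the plus strand at chr6:125546774-125686679 with 52 exons. Exons are those of the longest transcript that the annotation tags as principal. *F8* lies on the minus strand at chrX:75172715-75382615 with 26 exons, and it overlaps 1 gene on its own strand (Gm8522) and 2 on the other (Gm6039 and *Fundc2*). *F3* is at chr3:121723537-121735048 on the plus strand with 6 exons. On chromosome 2 lie *Tfpi* at chr2:84432855-84476775 (minus, 10 exons), *Thbd* at chr2:148404466-148408188 (minus, a single-exon gene) and *Procr* at chr2:155751117-155755471 (plus, 4 exons). *Plat* is at chr8:22757727-22782844 (plus, 14 exons). Of the 7 genes, only *F8* overlaps another annotated gene. Reads of overlapping genes could be mixed in the *F8* counts.

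Promoter sequence from RefSeq (GRCm38.p6) was matched for 4 of the 7 members, *F8*, *F3*, *Tfpi* and *Procr*. The 250 bases before the start site are printed for *F8* and *F3*, the clotting proteins whose transcripts lay mostly outside the blood endothelium here, and for *Procr*, the member closest to the detection limit. Windows were searched on both strands for AGGAAG (the core bound by ETS factors), ACGTG (the core of the hypoxia response element) and TGANTCA (AP-1), and matches are in capitals. RefSeq's starts of *F8*, *Procr* and *Tfpi* lie inside the GENCODE genes, so these windows lie partly or wholly inside the annotated gene. The windows are chrX:75380042-75380291 (minus strand), chr3:121723287-121723536 (plus strand) and chr2:155750967-155751216 (plus strand).
F8: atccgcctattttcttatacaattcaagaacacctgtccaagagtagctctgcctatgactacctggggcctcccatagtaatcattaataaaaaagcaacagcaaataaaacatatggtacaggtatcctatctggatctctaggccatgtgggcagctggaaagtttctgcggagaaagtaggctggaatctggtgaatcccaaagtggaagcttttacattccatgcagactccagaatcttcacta
F3: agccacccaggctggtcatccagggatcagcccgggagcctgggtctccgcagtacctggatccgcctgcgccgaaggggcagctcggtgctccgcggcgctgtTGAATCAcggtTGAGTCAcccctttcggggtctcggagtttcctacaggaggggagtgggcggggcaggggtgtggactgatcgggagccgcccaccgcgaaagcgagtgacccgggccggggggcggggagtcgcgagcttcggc
Procr: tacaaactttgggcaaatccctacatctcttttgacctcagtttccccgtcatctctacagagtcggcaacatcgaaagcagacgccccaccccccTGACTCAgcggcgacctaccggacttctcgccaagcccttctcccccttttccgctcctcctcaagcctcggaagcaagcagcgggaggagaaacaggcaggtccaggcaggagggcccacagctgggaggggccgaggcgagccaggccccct
The *F3* window held 2 AP-1 matches and the *Procr* window held 1, a motif found in 6.75% of all 32851 promoter windows of this length. The *F8* window held none of the 3 motifs. For *Tfpi* there are 2 windows, of which 1 held 2 ETS core matches, a motif found in 29.5% of windows. The ACGTG core, found in 16.6% of windows, was in none of these 5. A match describes the letters and is no evidence of binding.

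The normoxia library held 2223 cells with 7630683 UMIs and the hypoxia library 809 cells with 2685345 UMIs. After filtering, 1348 and 689 cells remained, with a median of 3453 and 2224 UMIs. More than 5% mitochondrial UMIs were found in 37.6% of normoxia and 13.2% of hypoxia cells, which were removed. The libraries shared 1 cell barcode before filtering and 0 after it. Classes were named from marker genes, and the 7 genes and the wider pathway list were left out of the clustering. EC-like cells made up 861 (63.9%) of the kept normoxia cells and 597 (86.6%) of the kept hypoxia cells. These counts depended on the settings, as given in the last section. By subtype there were 623 and 411 general capillary EC-like cells, 121 and 59 aerocyte EC-like cells (the flat capillary cell of gas exchange), 21 and 17 arterial, 54 and 20 venous, and 11 and 3 lymphatic EC-like cells, in normoxia and hypoxia. A further 31 and 87 EC-like cells took no subtype name. Of the markers set for each subtype, 5 of 6 general capillary, 7 of 7 aerocyte, 6 of 7 arterial, 8 of 8 venous and 7 of 7 lymphatic markers were detected. The names were given by these same markers, so the counts are no check on the names. General capillary EC-like cells of the 2 libraries lay mostly in different clusters: 184 of the 411 hypoxia cells were in a cluster led by *Mal*, *Ntrk2* and *Cdk19* that held 2 normoxia cells, while most normoxia cells were in clusters led by *Socs3* and *Marcksl1*, by *Hey1* and *Lpl*, or by Gm16486 and *Zc3h12a*. Levels are given as UMIs of a gene per 1000000 UMIs of all cells of the group (CPM) with a Poisson 95% interval, and a CPM compares groups of cells within a gene, not 1 gene with another.

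*Vwf* was highest in venous and arterial EC-like cells in both libraries. In venous EC-like cells it reached 3001 CPM (95% interval 2811 to 3200, 929 UMIs) in normoxia and 5786 CPM (5297 to 6310, 513 UMIs) in hypoxia. Arterial EC-like cells followed with 1351 CPM (1151 to 1575, 162 UMIs) and 725 CPM (556 to 930, 62 UMIs). General capillary EC-like cells had 134 CPM (120 to 149) in normoxia and 193 CPM (171 to 217) in hypoxia. By summed UMIs, the order venous, arterial, general capillary was the same in both libraries. No neighbouring intervals overlapped, but these intervals cover counting error only and leave out spread between cells. Of the 62 hypoxia arterial UMIs, 21 were in 1 of the 17 cells, and the median cell held 1 UMI. Whether arterial cells stand above general capillary cells beyond the spread between cells was not tested. Aerocyte EC-like cells held 5 UMIs in each library, 7.11 CPM (2.31 to 16.6) and 14.8 CPM (4.82 to 34.6). The 11 normoxia lymphatic EC-like cells held 0 UMIs, which allows up to 71.7 CPM at 3 counts. Venous EC-like cells therefore carried 61.9% of all *Vwf* UMIs of the normoxia library and 57.8% of those of the hypoxia library.

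**Figure D1:**
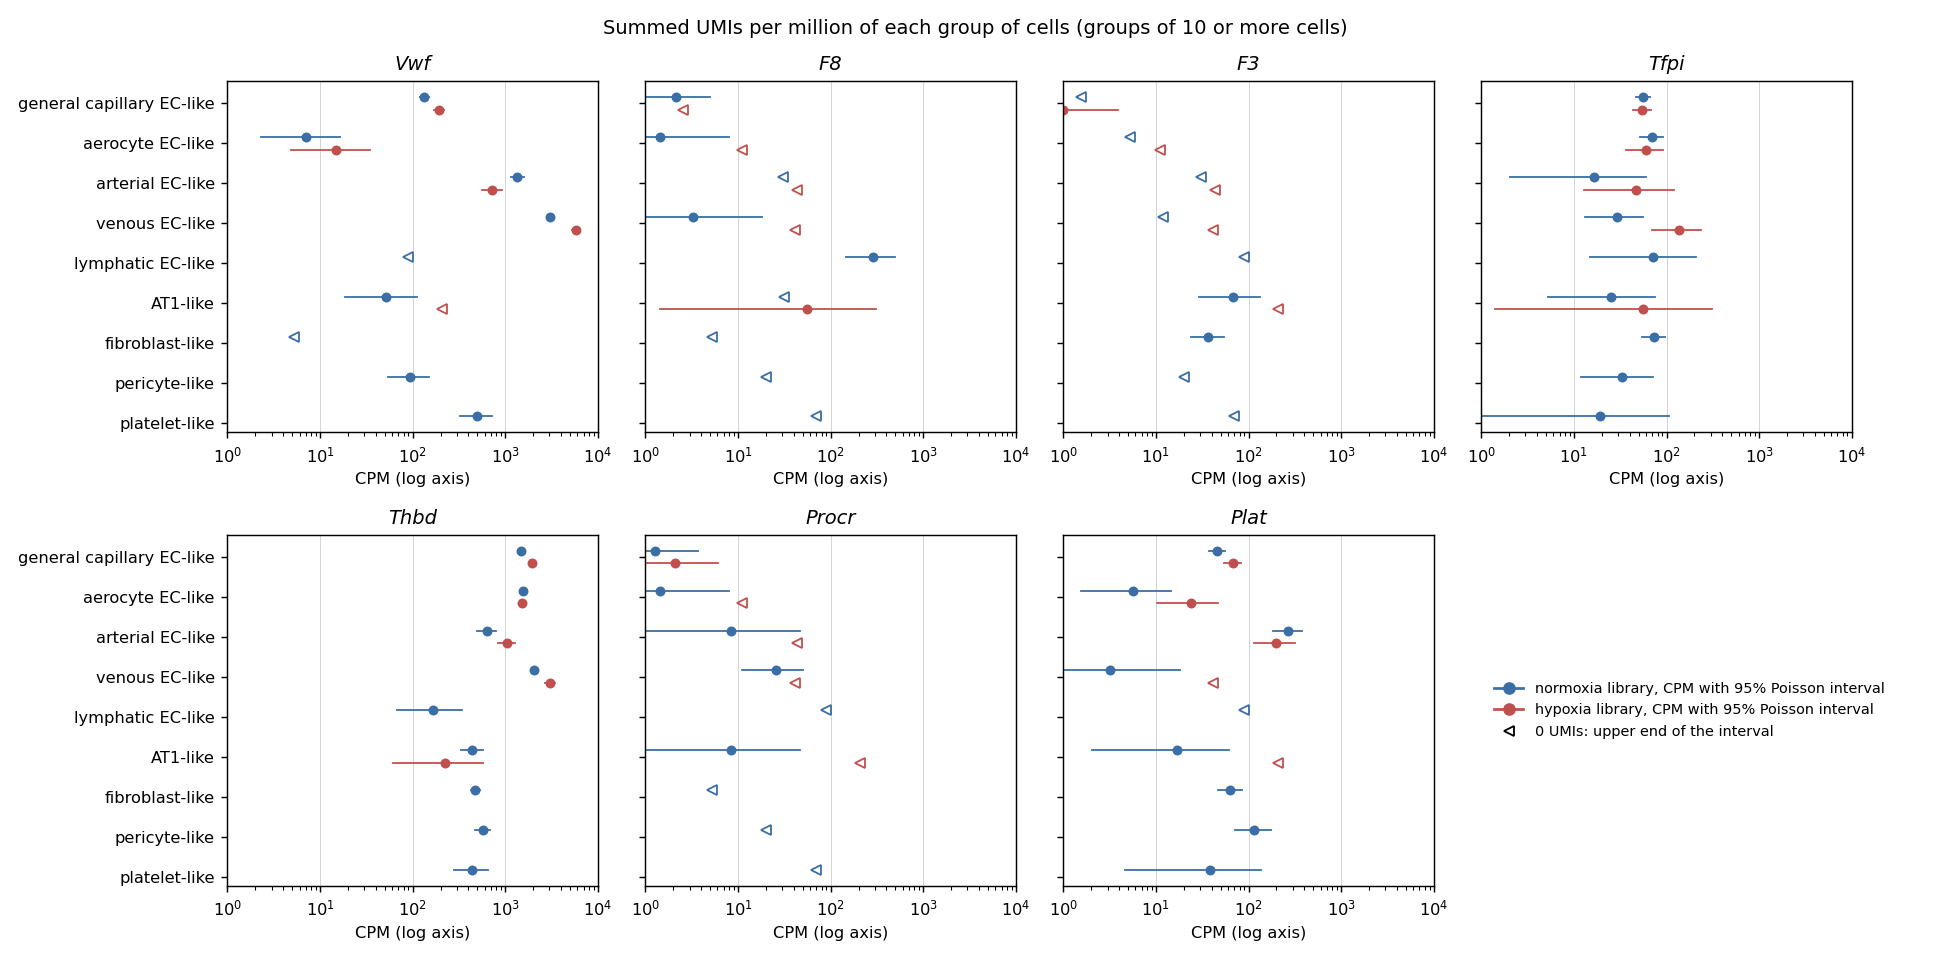
CPM (log axis from 1, values below 1 lie on its edge) of the 7 genes in cell groups with at least 10 cells of a library, with Poisson 95% intervals; blue is normoxia, red is hypoxia, and an open triangle marks the upper end of the interval for 0 UMIs. *Vwf* stands at 3001 and 5786 CPM in venous EC-like cells, and *Thbd* lies between 634 and 3023 CPM in the blood EC-like subtypes shown. *F8* is highest in lymphatic EC-like cells, and *F3* was not found in normoxia EC-like cells.

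The venous/general capillary ratio of *Vwf* was 22.4 (19.7 to 25.5) in normoxia and 29.9 (25.8 to 34.8) in hypoxia. The venous/arterial ratio was 2.22 (1.88 to 2.64) in normoxia and 7.98 (6.12 to 10.6) in hypoxia. All 54 normoxia and all 20 hypoxia venous EC-like cells had at least 1 *Vwf* UMI, the lowest cell holding 1 and 5 UMIs, the median cell 16 and 15, and the highest 42 and 77. Relative to the cell's own total, the median venous cell held 29.4 *Vwf* UMIs per 10000 in normoxia and 59.6 in hypoxia, and the cells of the libraries overlapped (2.73 to 62.6 and 17.8 to 100.4). In general capillary EC-like cells most cells held 0 UMIs: 24.4% of normoxia cells (median 3641 UMIs per cell) and 20.9% of hypoxia cells (median 2962) had 1 or more. After thinning each cell to 1000 UMIs, the shares were 10.6% of 593 and 11.7% of 342 cells, with 30 and 69 shallower cells left out. Among normoxia cells of classes that should lack *Vwf*, 0 of 97 fibroblast-like cells (median 7055 UMIs, a share of up to 3.09% allowed), 6.52% of 46 AT1-like cells (median 1315) and 15.9% of 44 pericyte-like cells (median 3920.5) had a UMI. After thinning, 1 of 28 AT1-like cells (3.57%, 95% interval 0.0904 to 18.3) and 2 of 39 pericyte-like cells (5.13%, 0.627 to 17.3) had a UMI, and these intervals overlapped that of normoxia general capillary cells (8.26 to 13.4).

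Outside the EC-like cells, *Vwf* was found in platelet-like cells, named from *Pf4*, *Ppbp* and *Gp9* among others, at 494 CPM (323 to 725, 26 UMIs in 25 normoxia cells). That is 5.70 UMIs per 100 UMIs of the 10 EC markers in those cells, beside 2.88 in EC-like cells. EC markers stood at 8672 CPM in the platelet-like cells. Megakaryocytes and platelets are known to make and store the protein. Pericyte-like cells had 93.2 CPM (54.3 to 149), or 2.00 per 100 EC-marker UMIs, and those cells held EC markers at 4653 CPM against 13704 CPM in EC-like cells. The part of EC transcripts in the platelet-like and pericyte-like values was not tested. A shallow cluster of 140 normoxia and 24 hypoxia cells that stayed unnamed (median 700 and 776 UMIs, led by *Pcp4l1*) had 302 and 192 CPM, with EC markers at 8644 and 9090 CPM.

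The summed *Vwf* level was higher in hypoxia in venous EC-like cells and lower in arterial EC-like cells. The arterial direction rested on 21 and 17 cells. It was kept in 4 of the 5 alternatives that gave an arterial value, which lay between 0.393 and 1.19. Only 1 of these 5 was a new clustering, so the count says little about the direction. In 4 further alternatives no arterial cluster was named. A cell gate on arterial markers took 258 and 168 cells, so it is a different set of cells. Between 1 hypoxia and 1 normoxia library, the hypoxia/normoxia ratio was 1.93 (1.73 to 2.15) in venous EC-like cells, where 14.0% of the 1424 genes with at least 50 UMIs were higher by 1.5-fold or more and 15.7% lower. It was 0.537 (0.394 to 0.724) in arterial EC-like cells, where 18.5% of 687 genes were higher and 15.1% lower by that fold. In general capillary EC-like cells it was 1.44 (1.22 to 1.70), short of that fold, which 10.2% of 7702 genes passed upwards and 9.82% downwards. There 31 of 623 normoxia and 16 of 411 hypoxia cells were enough to hold 50% of the *Vwf* UMIs. The highest hypoxia cell reached 161 per 10000, and the highest normoxia cell 33.4. In 9 alternatives the general capillary ratio lay between 1.07 and 2.02. Beside these general capillary values, the summed general capillary markers stood at 5905 CPM in normoxia and 3559 CPM in hypoxia, and the clusters that held 184 and 108 of the 411 hypoxia cells had a mean marker level below that of the other EC-like cells (log2 -0.35 and -0.36). The part of this in the ratios of *Vwf*, *Thbd* and *Plat* was not tested. Over all EC-like cells the *Vwf* ratio was 1.06 (0.976 to 1.16). This ratio mixes level with the make-up of the EC-like cells. Venous EC-like cells held 309610 of the 3583707 EC-like UMIs of normoxia and 88655 of the 2089442 of hypoxia. Pooled over the 5 groups that had 10 or more cells from both libraries the *Vwf* ratio was 1.56. These were the general capillary, aerocyte, arterial and venous subtypes and the EC-like cells without a subtype name. Pooled cluster by cluster, over the 8 clusters with 10 or more cells from both libraries, the *Vwf* ratio was 1.61. Those 8 leave out the cluster led by *Mal*, with 184 of the 411 general capillary cells of hypoxia.

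**Figure D2:**
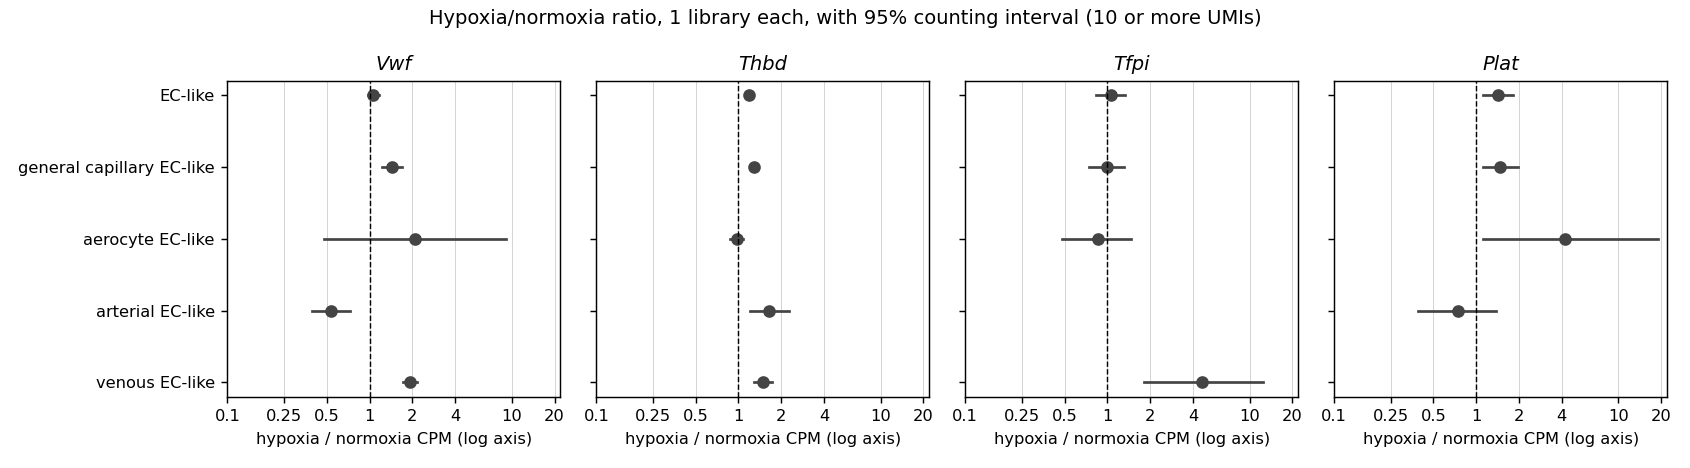
Hypoxia/normoxia ratio of CPM (log axis) of *Vwf*, *Thbd*, *Tfpi* and *Plat* in EC-like cells and in 4 subtypes, with conditional binomial 95% intervals; groups with fewer than 10 UMIs of a gene are left out. *Vwf* lies at 1.93 in venous and at 0.537 in arterial EC-like cells, and *Thbd* between 0.970 and 1.64.

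The arterial difference rests on few cells. In normoxia 18 of 21 arterial EC-like cells (85.7%) had a *Vwf* UMI and the median cell held 10.8 per 10000, while in hypoxia 9 of 17 (52.9%) did and the median cell held 1.14. After thinning to 1000 UMIs the shares were 57.1% and 41.2%. In hypoxia 2 cells were enough to hold 50% of the UMIs, and the highest reached 119 per 10000, above the highest normoxia cell at 30.5. A mean over cells, in which every cell counts alike, therefore gave a ratio of 1.19 in place of 0.537, and without the top cell of each library the ratio was 0.393. The summed arterial markers stood at 2960 CPM in normoxia and 2281 CPM in hypoxia.

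**Figure D3:**
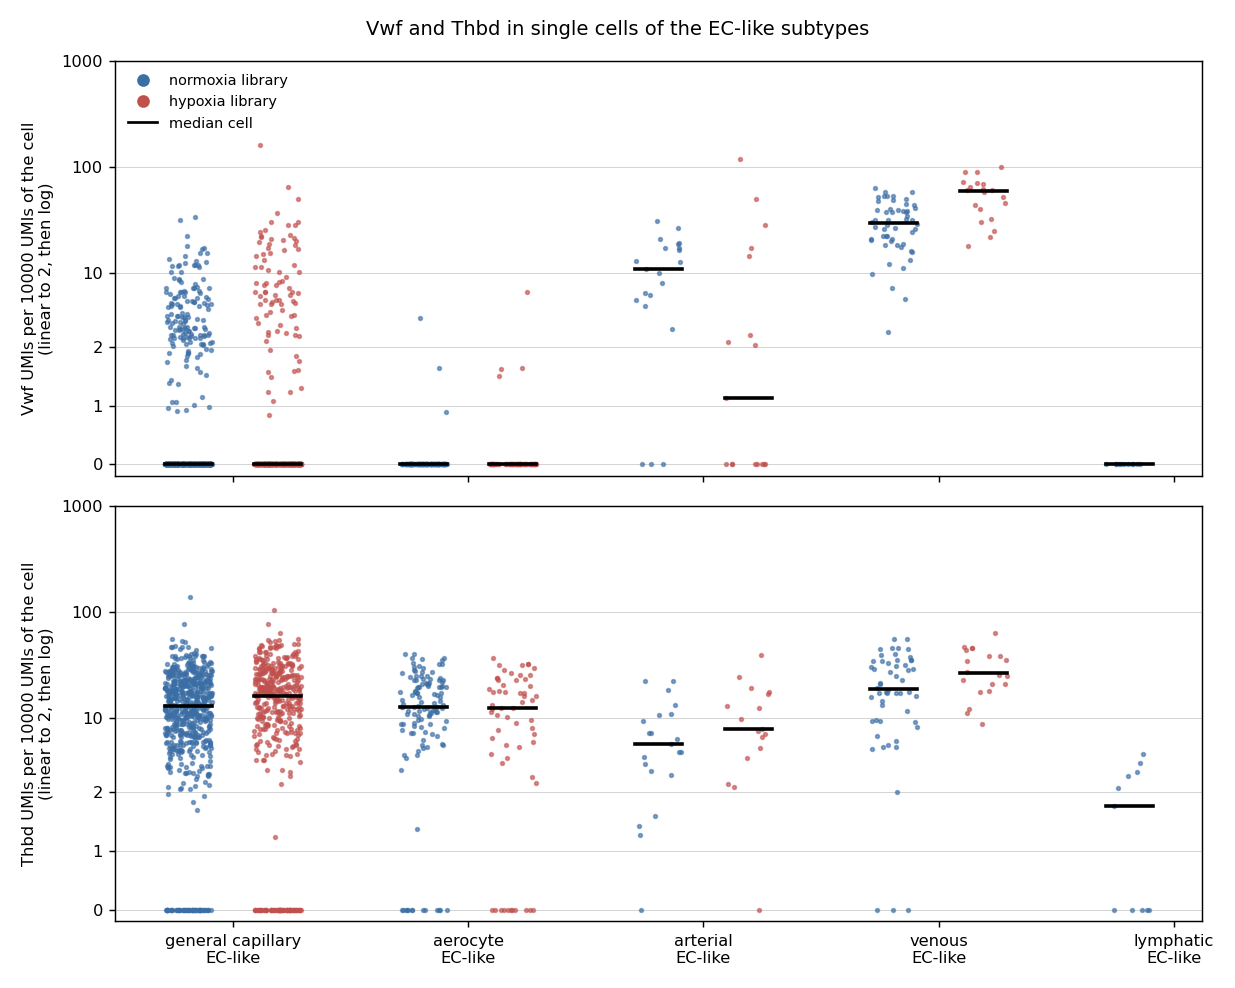
*Vwf* (top) and *Thbd* (bottom) UMIs per 10000 UMIs of each cell (axis linear to 2, then log) by EC-like subtype and library, with the median cell as a black bar; groups under 10 cells are left out. For *Vwf* the median venous cell stands at 29.4 in normoxia and 59.6 in hypoxia, the median arterial cell at 10.8 and 1.14, and the median general capillary cell at 0 in both.

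The venous difference was spread over the group, with 17 of 54 normoxia and 5 of 20 hypoxia cells needed to hold 50% of the *Vwf* UMIs. The ratio kept its direction in all 9 alternatives run on it, between 1.53 and 2.22. Other measures differed beside it: in normoxia and hypoxia, the 8 venous markers summed to 7209 and 4038 CPM, 16 immediate-early genes to 32680 and 11054 CPM, and the median mitochondrial share was 2.73% and 1.17%. Immediate-early genes were also higher in normoxia in arterial (21134 and 5382 CPM) and general capillary EC-like cells (26048 and 8127 CPM). The part of these differences in the *Vwf* values was not tested.

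Within general capillary EC-like cells the *Vwf* level depended on the cluster. Among the clusters with at least 10 cells of both libraries, it went from 108.7 CPM in normoxia to 42.8 CPM in hypoxia in the *Socs3*-led cluster (69 and 5 UMIs), and from 43.1 to 313 CPM in the *Gm26917*-led cluster (4 and 48 UMIs). In the *Gm26870*-led cluster it was 96.0 CPM on 1 UMI of 10 normoxia cells and 462 CPM on 56 UMIs of 108 hypoxia cells. These last 2 clusters were shallow, with a median of 1672 and 919.5 UMIs per cell. The large hypoxia cluster led by *Mal* had 160 CPM (136 to 187), inside the range of 57.2 to 185 CPM of the clusters with at least 10 cells of normoxia alone.

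**Figure D4:**
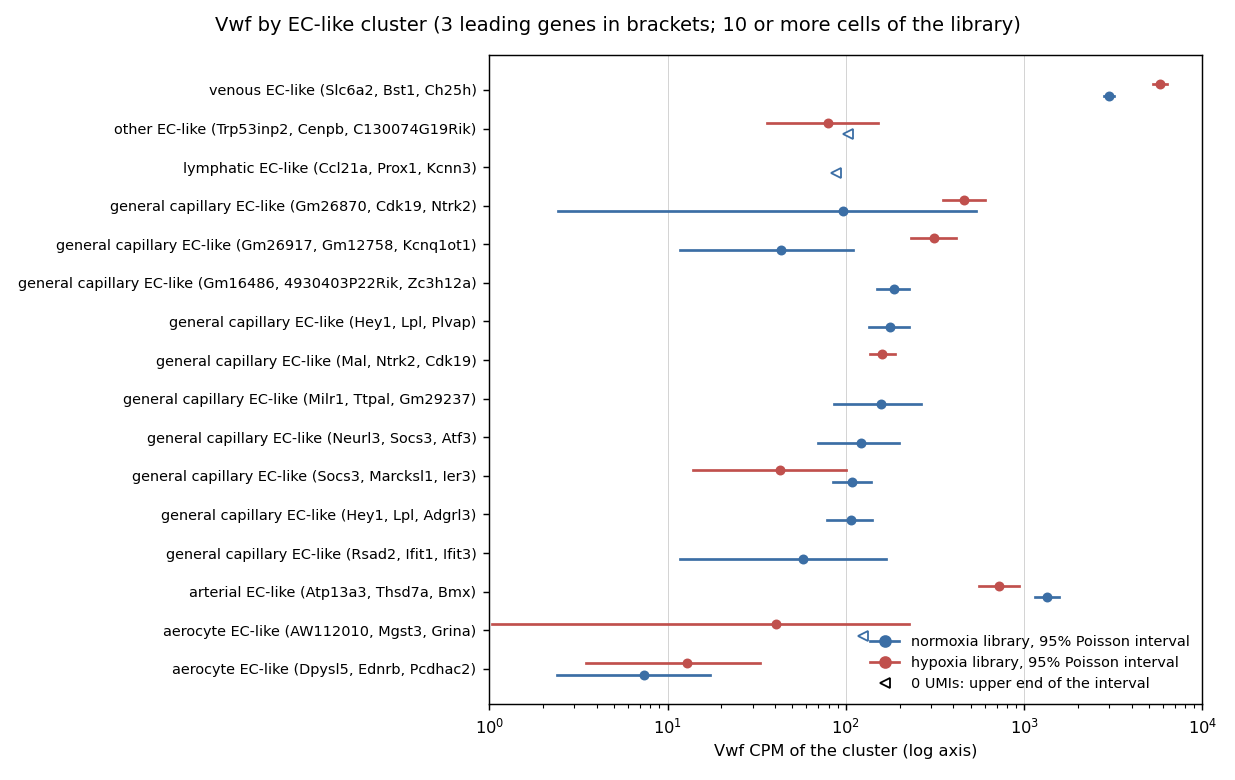
*Vwf* CPM (log axis) with Poisson 95% intervals in each EC-like cluster with at least 10 cells of a library, labelled with its 3 leading genes; an open triangle marks the upper end of the interval for 0 UMIs. The venous cluster stands highest in both libraries (3001 and 5786 CPM), the arterial cluster next (1351 and 725 CPM), and the general capillary clusters spread from 42.8 to 462 CPM.

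*F8*, the cofactor that speeds activation of factor X, was found mainly in lymphatic EC-like cells. In normoxia these 11 cells held 12 of the library's 19 *F8* UMIs, 287 CPM (148 to 501), with 6 cells positive and at most 3 UMIs in a cell. The 623 general capillary EC-like cells held 5 UMIs, 2.12 CPM (0.688 to 4.94), of which 3 were in 1 cell. Venous and aerocyte EC-like cells held 1 UMI each and arterial EC-like cells 0. In hypoxia only 3 lymphatic EC-like cells were kept, with 1 *F8* UMI, and 1 further UMI was in an AT1-like cell. The EC-like ratio of 0.0903 (0.00217 to 0.568) was formed from 19 and 1 UMIs, with 11 and 3 lymphatic EC-like cells in the libraries. Without the lymphatic EC-like cells, 7 *F8* UMIs stood in normoxia EC-like cells and 0 in hypoxia.

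*F3* was near absent from EC-like cells: 0 UMIs in 861 normoxia cells, which allows up to 0.837 CPM at 3 counts, and 1 UMI in 597 hypoxia cells. It lay in fibroblast-like cells at 36.8 CPM (24.1 to 54.0, 26 UMIs in 97 normoxia cells), but in 5 cells only, and 20 of the 26 UMIs were in 1 cell. AT1-like cells, the flat epithelium of the alveolus, held 8 UMIs in 8 of 46 normoxia cells, 67.9 CPM (29.3 to 134). AT2-like cells held 2 UMIs in each library, in 7 and 8 cells. Tissue factor is known as a protein of the outer wall and the epithelium, kept from blood until injury. In hypoxia 12 AT1-like and 5 fibroblast-like cells were kept, with 0 and 2 UMIs, so a difference was not detectable at this depth.

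*Tfpi*, the inhibitor of the tissue factor complex, had at least 1 UMI in all EC-like subtypes of both libraries, but only 2 in normoxia arterial and 1 in hypoxia lymphatic cells. It stood at 54.4 CPM (47.0 to 62.6) in EC-like cells of normoxia and 57.4 CPM (47.6 to 68.7) in those of hypoxia. The ratio was 1.06 (0.834 to 1.33). General capillary EC-like cells had 55.5 and 54.9 CPM and aerocyte EC-like cells 69.7 and 59.4 CPM, with intervals that overlapped within each library. Venous EC-like cells had 29.1 CPM (13.3 to 55.2, 9 UMIs) in normoxia and 135 CPM (69.9 to 236, 12 UMIs) in hypoxia. Their ratio was 4.66 (1.80 to 12.5), and 7 of 54 and 5 of 20 cells were positive. Thinned to 1000 UMIs, 5.56% and 5.00% of these venous cells were positive. Fibroblast-like cells in normoxia had 73.6 CPM (55.0 to 96.6, 52 UMIs), 32.9 UMIs per 100 EC-marker UMIs against 0.397 in EC-like cells.

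*Thbd* was found in 81.4% to 100% of the cells of each named blood EC-like subtype of each library. In normoxia it stood at 2041 CPM (1885 to 2207) in venous, 1571 CPM (1480 to 1666) in aerocyte, 1487 CPM (1438 to 1537) in general capillary and 634 CPM (499 to 793) in arterial EC-like cells. In hypoxia the same groups had 3023 CPM (2672 to 3407), 1523 CPM (1394 to 1661), 1919 CPM (1848 to 1992) and 1041 CPM (836 to 1281). Venous was highest and arterial lowest of the 4 in both libraries. General capillary and aerocyte EC-like cells overlapped in normoxia, and in hypoxia general capillary cells were above, with an aerocyte/general capillary ratio of 0.794 (0.721 to 0.873). Lymphatic EC-like cells had 167 CPM (67.3 to 345, 7 UMIs) in normoxia. The EC-like cells without a subtype name held 16 *Thbd* UMIs in 31 normoxia cells and 83 in 87 hypoxia cells.

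The hypoxia/normoxia ratio of *Thbd* was 1.19 (1.14 to 1.24) over EC-like cells, 1.29 (1.23 to 1.36) in general capillary, 1.48 (1.28 to 1.71) in venous, 1.64 (1.20 to 2.26) in arterial and 0.970 (0.872 to 1.08) in aerocyte EC-like cells. The share of general capillary EC-like cells with a UMI after thinning was 73.4% in normoxia and 78.1% in hypoxia, and that of aerocyte EC-like cells was 76.6% in both. Of these ratios only the arterial one was past 1.5-fold, as were 18.5% of the arterial genes tested. The median arterial cell held 5.71 *Thbd* UMIs per 10000 in normoxia and 7.84 in hypoxia. The EC-like ratio of *Thbd* was above 1 in all 10 alternatives run on it, between 1.06 and 1.28.

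Fibroblast-like cells also held *Thbd*, at 473 CPM (424 to 527, 334 UMIs) in normoxia, with 82.5% of 97 cells positive and 25.8% after thinning to 1000 UMIs. Their EC markers stood at 224 CPM, which makes 211 *Thbd* UMIs per 100 EC-marker UMIs, against 10.9 in EC-like cells. In pericyte-like (12.3) and AT1-like cells (10.7) the same measure was close to that of EC-like cells, at 570 and 441 CPM. The leukocyte cluster led by *Ccl4*, which stayed unnamed, held 99.6 CPM in normoxia (14 UMIs in 19 cells, 8 of them in 1 cell) and 676 CPM in hypoxia (9 UMIs, all in 1 of 3 cells), too uneven to serve as a background.

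*Procr* was near the limit of detection, with 14 UMIs in normoxia and 6 in hypoxia over all kept cells. In normoxia 8 of them, in 7 cells, lay in the 54 venous EC-like cells, 25.8 CPM (11.2 to 50.9), and 3 UMIs lay in 623 general capillary EC-like cells, 1.27 CPM (0.262 to 3.71). The 20 hypoxia venous EC-like cells held 0 UMIs, which allows up to 33.8 CPM at 3 counts, above the normoxia value, so a difference was not detectable at this depth. The EC-like ratio was 0.660 (0.184 to 1.97).

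*Plat* was higher in arterial than in venous EC-like cells, the reverse of the order of *Vwf* and *Thbd*. Arterial EC-like cells had 267 CPM (182 to 377, 32 UMIs) in normoxia and 199 CPM (116 to 318, 17 UMIs) in hypoxia, and 10 of the 32 normoxia UMIs were in 1 cell. General capillary EC-like cells had 45.7 CPM (37.5 to 55.2) and 67.4 CPM (54.7 to 82.3). Venous EC-like cells held 1 UMI in normoxia, 3.23 CPM (0.0818 to 18.0), and 0 in hypoxia. The normoxia value depended on which cells were named venous: it was 151 CPM with up to 6000 detected genes and 57.1 CPM with each library clustered alone, and in neither was an arterial cluster named. The arterial/general capillary ratio was 5.83 (3.80 to 8.72) in normoxia and 2.95 (1.65 to 4.97) in hypoxia, and the venous/general capillary ratio was 0.0706 (0.00177 to 0.402) in normoxia. Aerocyte EC-like cells were below general capillary cells in both libraries, with ratios of 0.124 (0.0333 to 0.328) and 0.352 (0.148 to 0.722).

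*Plat* was also found outside the EC-like cells. A cluster of 16 normoxia cells led by *Hhip*, which stayed unnamed, had 223 CPM (140 to 337) with 81.3% of its cells positive, pericyte-like cells had 115 CPM (71.2 to 176) and fibroblast-like cells 63.7 CPM (46.5 to 85.3). In relation to EC markers these were 220, 2.47 and 28.5 UMIs per 100, against 0.299 in EC-like cells. The hypoxia/normoxia ratio was 1.42 (1.11 to 1.82) in EC-like cells and 1.47 (1.11 to 1.96) in general capillary EC-like cells. It was 4.18 (1.12 to 19.0) in aerocyte EC-like cells on 4 and 8 UMIs, and 0.746 (0.388 to 1.38) in arterial EC-like cells. The arterial value gives no direction: it lay between 0.765 and 1.71 in 5 alternatives and below 1 in 2 of them. The EC-like ratio was 1.09 when pooled cluster by cluster, over the 8 that had 10 or more cells from both libraries.

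Of the 7 genes, 4 reached 50 UMIs in EC-like cells (*Vwf*, *Thbd*, *Tfpi* and *Plat*), and 0 of them passed 1.5-fold, while 7.98% of all 8749 genes with that many UMIs were higher in hypoxia by that fold and 9.85% lower. The intervals of *Thbd* and *Plat* lay above 1. The median ratio of the 4 was 1.13, beside 1.02 for all genes.

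A wider list of 46 genes of the pathway was read in the same way, and 33 had a UMI in EC-like cells. With at least 50 UMIs there were 18, of which 2 were higher and 5 lower in hypoxia by 1.5-fold or more, with a median ratio of 0.835. Of all 8749 genes with that many UMIs, 7.98% were higher and 9.85% lower by that fold, with a median ratio of 1.02. Of the 12 clotting factors on it none reached 50 UMIs in EC-like cells, and 5 had any. Most clotting factors are known to be made by the liver, and the cause of the low counts was not tested. *F10* had 18 UMIs in normoxia and 1 in hypoxia.

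Among the fibrinolysis genes, *Anxa2*, a surface receptor that brings plasminogen and its activator together, had a ratio of 2.53 (2.33 to 2.74). It was higher in hypoxia in general capillary (2.78), aerocyte (2.84), arterial (2.07) and venous EC-like cells (1.88). Its partner *S100a10* had a ratio of 1.43 (1.31 to 1.56), with 1.73 in general capillary and 1.01 in aerocyte EC-like cells. The plasminogen receptor gene *Plgrkt* stood at 0.745 (0.608 to 0.908), with 0.590 (0.463 to 0.746) in general capillary EC-like cells but values above 1, with intervals that included 1, in aerocyte (1.67), venous (2.21) and arterial EC-like cells (1.40). Urokinase (*Plau*, 1.45, 0.834 to 2.49) and its receptor *Plaur* (1.12, 0.946 to 1.33) had intervals that included 1 over all EC-like cells. *Plau* lay mainly in aerocyte EC-like cells, which held 26 of the 32 normoxia and 25 of the 27 hypoxia UMIs. Of the *Plaur* UMIs of EC-like cells they held 178 of 355 in normoxia and 136 of 232 in hypoxia, and general capillary EC-like cells held 145 and 86. In aerocyte EC-like cells *Plau* had a ratio of 2.01 (1.11 to 3.62), and *Plaur* went from 253 to 404 CPM, a ratio of 1.60 (1.27 to 2.01). In general capillary EC-like cells *Plaur* stood at 61.4 and 59.8 CPM.

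Among the anticoagulant genes, *Hs3st1*, the enzyme that gives heparan sulfate its antithrombin site, went from 206 to 74.2 CPM, a ratio of 0.361 (0.301 to 0.429). The ratio was 0.335 in general capillary, 0.441 in aerocyte and 0.828 (0.501 to 1.32) in venous EC-like cells. *Serping1* (C1 inhibitor) stood at 0.508 (0.271 to 0.901), on 54 and 16 UMIs, while in normoxia fibroblast-like cells had 2051 CPM of it. Protein S (*Pros1*) differed by less than its counting error, at 0.998 (0.836 to 1.19), and *Anxa5*, which covers phospholipid surfaces, stood at 1.35 (834 and 658 UMIs). The thrombin receptor *F2r* had a ratio of 0.689 (0.480 to 0.974) in EC-like cells, 0.485 (0.283 to 0.799) in general capillary and 1.44 (0.795 to 2.55) in aerocyte EC-like cells. In normoxia *F2r* stood at 360 CPM outside the EC-like cells, against 32.6 CPM in them. The part of transcripts from other cells in its ratios was not tested.

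Of the genes that store, release or process von Willebrand factor and factor VIII, 7 of 8 reached 50 UMIs. *Selp*, encoding P-selectin, which lies in the same granules as von Willebrand factor, had 49 UMIs in normoxia and 2 in hypoxia. In venous EC-like cells *Selp* went from 38 UMIs (123 CPM, 86.9 to 168) to 0, with an upper end of the ratio's interval of 0.356, in the group in which *Vwf* was higher in hypoxia. In arterial EC-like cells it went from 10 UMIs to 0. *Rab27a*, a small GTPase of granule release, had a ratio of 0.369 (0.255 to 0.521), and the granule protein *Cd63* 0.605 (0.385 to 0.928). In normoxia *Cd63* stood at 459 CPM outside the EC-like cells, against 23.7 CPM in them. The part of transcripts from other cells in the *Cd63* ratio was not tested. *Mcfd2*, which with *Lman1* carries factors V and VIII out of the endoplasmic reticulum, stood at 1.53 (1.23 to 1.91) and *Lman1* at 0.873 (0.769 to 0.989). *Furin*, which cleaves the precursor of von Willebrand factor, stood at 1.22 (0.999 to 1.48) and *Stxbp5* at 0.795 (0.580 to 1.08).

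**Figure D5:**
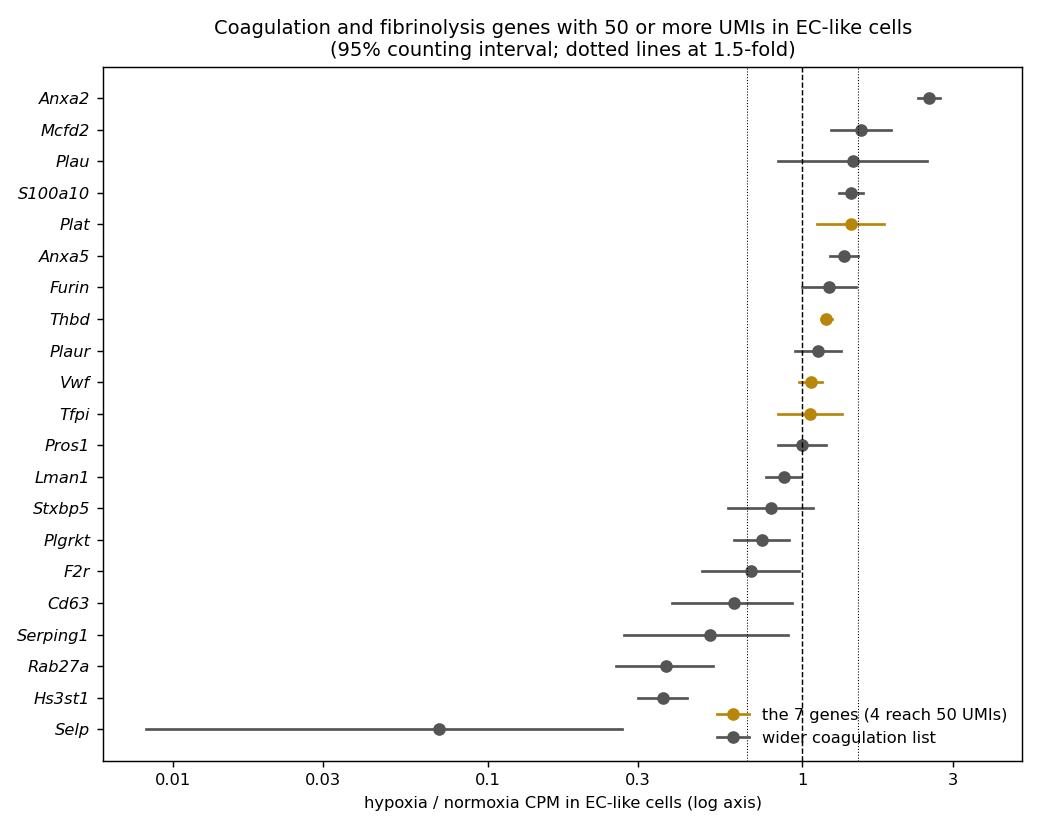
Hypoxia/normoxia ratio of CPM (log axis) in EC-like cells for the 4 members (gold) and 17 genes of the wider list (grey) with at least 50 UMIs, with 95% counting intervals; dotted lines mark 1.5-fold. *Anxa2* stands highest at 2.53 and *Selp* lowest at 0.0700, and the 4 members lie between 1.06 and 1.42.

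The genes whose levels followed each member most closely were found over 22 groups of cells (group by library, at least 10 cells each) among 8044 genes, by Pearson's r of log2(CPM + 10). Groups of 1 library share that library and depth, and r is given as a description. *Vwf* was followed by *Ptprr* (0.83), *Prcp* (0.82) and *Ackr3* (0.82), and *Thbd* by *Ptprg* (0.85), *Ankrd33b* (0.84) and *Mcc* (0.83). *F8*, with 21 UMIs, was followed by the lymphatic genes *Ccl21a* (0.79) and *Mmrn1* (0.72), and by *Magi1* (0.72). *Ccl21a* and *Mmrn1* are markers by which the lymphatic cells were named. Only 1 of the 22 groups is lymphatic, with 11 cells, so these values add no support. *Plat* was followed by *Lpl* (0.81), *Pdcd2* (0.77) and *Sulf1* (0.76), and *Tfpi* by *Tiprl* (0.84), *Add1* (0.75) and *Zcchc14* (0.75). For *F3* (44 UMIs) the nearest were *Kcna2*, *Igfbp6* and *Col4a5* (0.80 to 0.81), and for *Procr* (20 UMIs) *Slc34a2*, *Cytl1* and *Rnd1* (0.60 to 0.63).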

How the data were processed

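The authors aligned reads to mm10 and counted UMIs with Cell Ranger; the deposited matrices hold raw counts (header version 6.1.2), 1 library per condition. The 7 genes, the 46-gene list, the 16 immediate-early genes and the naming thresholds were chosen with earlier results of these data known. Kept cells had between 200 and 4000 genes detected and no more than 5% of UMIs from mitochondrial genes, and doublets were limited by the upper gene limit alone. Leiden clustering (scanpy 1.11.5, igraph 0.11.9; 30 components, 15 neighbours, resolution 2) left out members and pathway genes, without batch correction. A cluster needed 3 detected markers (UMI in at least 25% of cells). A subtype other than general capillary also needed a 2-fold mean marker level over other EC-like cells and the largest share of markers detected. The text names the 7 members, list genes with 50 UMIs and the 3 most alike genes; *F10* and the clusters were picked after their values were seen. Ratios use conditional binomial and levels Poisson 95% intervals (scipy 1.17.1). Only the ratio intervals were run on simulated data. Those were summed Poisson counts without cells, so the run says nothing about spread between cells. With 1 library per condition no p-value is given. Overlaps of genes were listed by strand from the annotation, and whether reads of overlapping genes entered the *F8* counts was not checked. Of the list genes with 50 UMIs, 1 is counted but not reported here.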

Additional observations from a re-analysis of the deposited data

Results flagged for a closer look

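*Vwf* was picked out because its hypoxia/normoxia ratio lay on opposite sides of 1 in different EC-like subtypes, with counting intervals that left out 1: 1.93 in venous and 1.44 in general capillary EC-like cells, and 0.537 in arterial EC-like cells. With 1 library per condition the difference between subtypes was not tested. The arterial value rests on 21 normoxia and 17 hypoxia cells and became 1.19 as a mean over cells, while the venous value stayed above 1 in all 9 alternatives run on it.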

How the results depend on the processing

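No paired analysis was possible because only 1 library was made per condition. EC-like cells of normoxia and hypoxia numbered 813 and 586 with up to 6000 genes, and 1055 and 395 with up to 10% mitochondrial UMIs. They numbered 811 and 391 at Leiden resolution 1, and 724 and 479 with each library clustered alone. With members among the variable genes they numbered 796 and 571. Of 187 hypoxia/normoxia ratios recomputed for 22 results, 160 stayed within the reported interval, and the rest moved out of it. All 22 are ratios of members, and no ratio of the wider list, such as those of *Anxa2*, *Hs3st1* and *Selp*, was recomputed. On the other side of 1 from the reported ratio lay 20 values of 10 results, and in 1 of these, arterial *Vwf*, the reported interval had left out 1. The *Vwf* ratio in EC-like cells was 0.952 with up to 6000 detected genes, 0.968 with each library clustered alone, 1.33 as a mean over cells, 1.56 within EC subtypes and 1.61 within EC-like clusters. Its general capillary ratio was 1.11 with up to 10% mitochondrial UMIs, 1.11 at Leiden resolution 1 and 1.07 with each library clustered alone. It was 2.02 as a mean over cells and 1.89 within the 3 general capillary clusters that had 10 or more cells from both libraries. Its venous ratio was 2.22 with up to 6000 genes and 1.53 with subtypes taken cell by cell from markers, and its arterial ratio was 0.899 with members among the variable genes, 0.393 without the top cell of each library and 1.19 as a mean over cells, which turned it. The normoxia venous/general capillary ratio of *Vwf* was 18.8 with up to 6000 genes, 15.6 at resolution 1 and 16.0 with each library clustered alone. The *Thbd* ratio in EC-like cells was 1.28 with up to 10% mitochondrial UMIs, 1.26 at resolution 1, 1.06 as a mean over cells and 1.25 within EC subtypes. The *F8* ratio was 0 within EC subtypes and 0 within clusters, neither of which holds lymphatic cells, and within clusters *Tfpi* stood at 1.40 and *Plat* at 1.09. The cause was not tested for the other shifts. No arterial EC-like cluster was named under 4 alternatives (6000 genes, 10% mitochondrial UMIs, resolution 1, each library alone), so these give no arterial value, and the cell gate on arterial markers took 258 and 168 cells, far more than the 21 and 17 of the cluster. Of 36 shares of cells, 21 moved with thinning to 500 in place of 1000 UMIs, as fewer UMIs lower a share. The within-cluster, top-cell and cell-gate alternatives were added after seeing the data. *F8*, *F3* and *Procr* had 21, 44 and 20 UMIs in all kept cells, which limits them to a description of place.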
